A study of Homo sapiens with 6 samples.

Results

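The genes described here are the TAM receptor tyrosine kinases AXL, TYRO3 and MERTK with their ligand GAS6, the MET family receptors MET and MST1R with the MET ligand HGF, the KIT receptor, and the discoidin domain receptors DDR1 and DDR2. They were taken as the probe sets whose only gene symbol in the platform annotation is 1 of these 10 names. That gave 24 probe sets for 9 genes, of 19775 genes with such a probe set on the array. DDR1 had none, because its 4 probe sets are annotated to DDR1 and MIR4640 together. The cells were of the MDA-MB-231 line, a human breast cancer line of basal, mesenchymal-like character. The 3 arrays labelled GATA3 came from cells given a lentivirus for GATA3 and green fluorescent protein (GFP), and the 3 GFP control arrays from cells given a lentivirus for enhanced GFP alone. Cells of both groups were sorted for GFP, plated in dishes and harvested for RNA 2 days later, in the same medium. Whether the 3 arrays of a group came from separate cultures is not given, so p-values measure the spread between arrays, which may be technical.

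Receptor tyrosine kinases cross the cell membrane once and switch on an inner kinase when a ligand brings them together. GAS6 and protein S bind the TAM receptors, which are known for the uptake of dying cells by macrophages and, in the case of AXL, for invasive, mesenchymal-like cancer cells. MET answers to HGF, a factor that makes epithelial cells scatter, and MST1R, also called RON, answers to the related factor MST1. KIT answers to stem cell factor and is known from mast cells and luminal progenitors of the breast. DDR1 and DDR2 bind collagen itself, DDR1 mainly in epithelial cells and DDR2 mainly in fibroblasts and other mesenchymal cells.

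Expression was read as GCRMA values on a log2 scale with a floor of 2.16, and a value over 4 was taken as detected. Groups were compared within a probe set, since probe sets differ in brightness. GATA3 itself was lower in the arrays labelled GATA3. Its brightest probe set (209604_s_at) averaged 7.73 ± 0.35 in them and 9.39 ± 0.06 in the GFP control arrays (SD, n = 3 each), a log2 change of -1.66 with an adjusted p of 0.00238. Whether this probe set reads the introduced sequence was not examined, and every direction below rests on the labels. Of the cell line's markers, VIM, CAV1, CD44 and ZEB1 were detected. Of 4 luminal markers, PGR and FOXA1 were under the detection level on every array. ERBB2 was detected, at 9.40 on average in the arrays labelled GATA3 and 9.56 in the control arrays (adjusted p 0.261). ESR1 read 4.02 on 5 arrays and 4.45 on GATA3 replicate 3, a repeated value that need not be signal. Under the detection level throughout were also all measured mast cell markers (3 genes) and endothelial markers (4 genes), 4 of 5 macrophage markers and 4 of 6 fibroblast markers. GATA3 replicate 3 stood apart from the other arrays. It correlated with GATA3 replicates 1 and 2 at 0.984 and 0.986, while those correlated at 0.997 with each other, and its raw file name alone carries a different date.

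Most of the receptors with a probe set of their own were detected, and among these the clear changes were in the MET family. The probe sets annotated to DDR1 and MIR4640 together, also higher in the arrays labelled GATA3, are not among the 24 and are given under the flagged results. Of the 24 probe sets, 14 for 7 genes were over 4 on at least 3 arrays and were tested. In the arrays labelled GATA3, 4 were higher (3 for MET and 1 for MST1R), 1 was lower (AXL), and 9 did not pass an adjusted p of 0.05. Over all 23785 probe sets tested, 25.3% passed, 11.3% higher and 14.0% lower, so 5 of 14 is not far from the share over the whole array. The groups did not overlap in 10 of the 14, against 46.0% of all probe sets tested. The median log2 change was 0.32 over the 14 and -0.05 over all tested. With each gene represented by its brightest tested probe set, 2 of 7 genes passed, MET and MST1R, both higher, against 29.3% of all genes tested (14.8% higher and 14.5% lower). Without GATA3 replicate 3, 8 probe sets and 4 genes passed. In that fit the probe sets passing over the whole array also rose, from 6027 to 7333 of 23785.

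**Figure D1:**
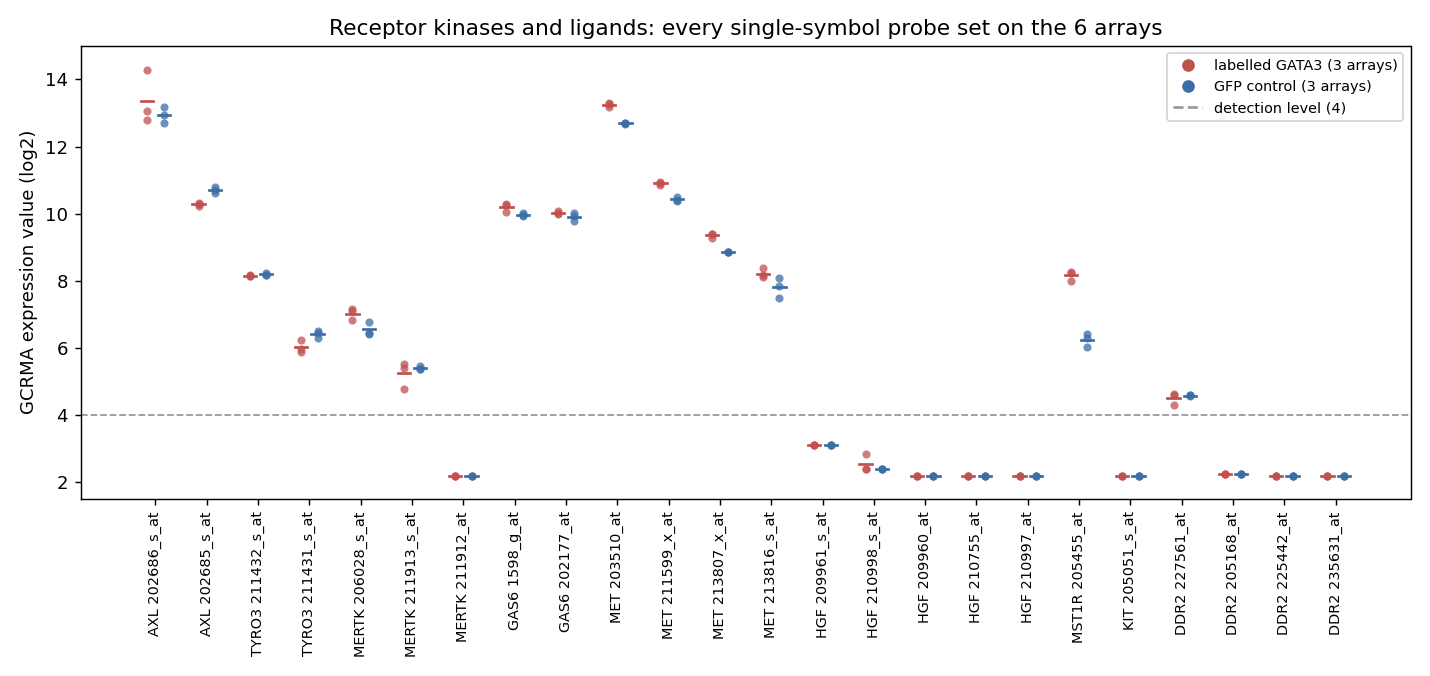
GCRMA expression values (log2, vertical axis) of all 24 probe sets on the 3 arrays labelled GATA3 (red, left of each pair) and the 3 GFP control arrays (blue, right). Points are arrays, short bars are group means and the dashed line is the detection level of 4. MST1R shows the widest gap between the groups, 1 AXL probe set has 1 array at 14.28, and the probe sets of HGF and KIT and 3 of DDR2 lie under the line.

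GAS6, the vitamin K-dependent ligand of all 3 TAM receptors, was detected on every array, and neither of its probe sets passed the test. Probe set 1598_g_at read 10.29, 10.27 and 10.06 in the arrays labelled GATA3, against 10.03, 9.91 and 9.95 in the GFP control arrays. All 3 arrays labelled GATA3 lay above the control arrays, by a narrow margin in replicate 3. The log2 change was 0.24 (SE 0.08, adjusted p 0.0776) and did not pass, although it did without GATA3 replicate 3 (0.32, adjusted p 0.0116). The other probe set, 202177_at, read 10.01, 9.98 and 10.07 in the arrays labelled GATA3, against 10.02, 9.92 and 9.77 in the control arrays, and the groups overlapped. Its log2 change of 0.12 had a 95% interval of -0.07 to 0.30, and was 0.053 without GFP control replicate 3.

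AXL, the TAM receptor best known from mesenchymal cancer cells, was lower by 1 of its 2 probe sets and did not pass by the other. Probe set 202685_s_at read 10.21, 10.33 and 10.29 in the arrays labelled GATA3, against 10.70, 10.63 and 10.80 in the GFP control arrays. The groups did not overlap, and the value fell by 0.43 on the log2 scale (SE 0.06, 1.35-fold lower, adjusted p 0.00577). This call held in all 13 alternative fits, with a log2 change between -0.47 and -0.38.

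The other AXL probe set, 202686_s_at, read 12.78, 13.05 and 14.28 in the arrays labelled GATA3, against 12.70, 12.93 and 13.17 in the control arrays. GATA3 replicates 1 and 2 lay within the range of the control arrays, while replicate 3 lay above every other array. The log2 change of 0.43 (SE 0.41, 95% interval -0.58 to 1.45, adjusted p 0.459) did not pass, and without GATA3 replicate 3 it was -0.021. Within each array, the difference between 202686_s_at and 202685_s_at was 2.56, 2.72 and 3.98 in the arrays labelled GATA3, against 2.00, 2.30 and 2.37 in the control arrays. Every array labelled GATA3 lay above every control array in this difference, and GATA3 replicate 3 was far above the other 5. Both carry the suffix for probes shared by several transcripts of a gene or by similar genes.

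TYRO3, a TAM receptor known from the nervous system, did not pass by either of its probe sets. Probe set 211432_s_at read 8.14, 8.14 and 8.16 in the arrays labelled GATA3, against 8.17, 8.18 and 8.22 in the GFP control arrays. The gap was small, at a log2 change of -0.04 with a 95% interval of -0.18 to 0.10 (adjusted p 0.633), and it turned to 0.041 after quantile normalization. Probe set 211431_s_at read 5.96, 5.87 and 6.23 in the arrays labelled GATA3, against 6.44, 6.50 and 6.28 in the control arrays. Its groups did not overlap, but replicate 3 of each group lay close to the other. The log2 change of -0.39 (SE 0.12, adjusted p 0.0719) did not pass. Without GATA3 replicate 3 it was -0.49, with an adjusted p of 0.0194.

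MERTK, the TAM receptor known from macrophages and the retinal pigment epithelium, was read at moderate levels. Probe set 206028_s_at gave 7.09, 7.15 and 6.81 in the arrays labelled GATA3, against 6.40, 6.45 and 6.78 in the GFP control arrays. Replicates 1 and 2 of the groups were well apart, while replicate 3 of each differed by little. The log2 change of 0.47 (SE 0.15, 95% interval 0.11 to 0.84) had an adjusted p of 0.0685. It passed without GATA3 replicate 3 (0.57, adjusted p 0.0397). Probe set 211913_s_at read 5.52, 5.40 and 4.77 in the arrays labelled GATA3, against 5.45, 5.35 and 5.35 in the control arrays. Control replicates 2 and 3 held the same value, so the readings of this probe set need not be signal. Replicate 3 of the arrays labelled GATA3 was the lowest of the 6. The log2 change was -0.15 (adjusted p 0.605), and 0.078 without GATA3 replicate 3. The remaining probe set, 211912_at, was at 2.16 or 2.17 on every array. The macrophage markers PTPRC, CD14, CD163 and MRC1 were under the detection level throughout. CSF1R, the other measured macrophage marker, lay between 3.88 and 3.93 in the arrays labelled GATA3 and between 4.13 and 5.05 in the control arrays.

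**Figure D2:**
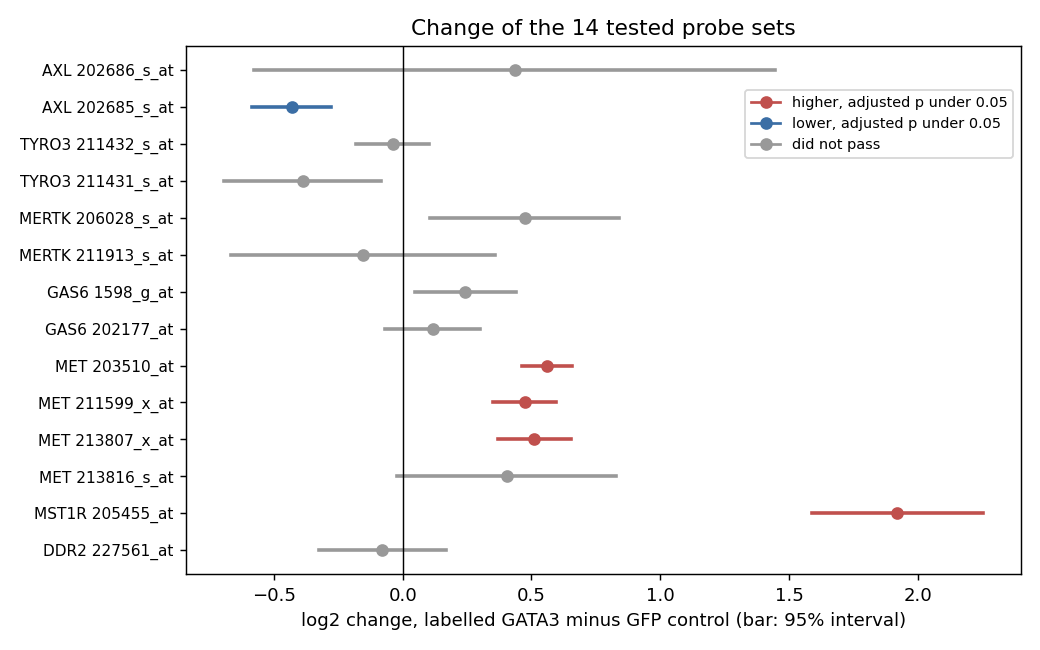
Log2 change (horizontal axis, arrays labelled GATA3 minus GFP control arrays) of the 14 tested probe sets, with 95% intervals from limma. Red marks those higher and blue those lower at an adjusted p under 0.05, and grey those that did not pass. MST1R stands at 1.92, 3 MET probe sets at 0.47 to 0.56, and the 2 AXL probe sets on opposite sides of 0.

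MET, the HGF receptor, was higher in the arrays labelled GATA3 by 3 of its 4 probe sets. Probe set 203510_at read 13.29, 13.28 and 13.18 in the arrays labelled GATA3, against 12.70, 12.70 and 12.66 in the GFP control arrays. The arrays within a group lay close together and the groups were clearly apart. The log2 change was 0.56 (SE 0.04), 1.48-fold, with an adjusted p of 0.000472. Probe sets 211599_x_at (0.47, adjusted p 0.00198) and 213807_x_at (0.51, adjusted p 0.00241) rose by nearly as much, and both carry the suffix for probes that may read other genes. For 211599_x_at the values were 10.94, 10.85 and 10.91 in the arrays labelled GATA3, against 10.41, 10.49 and 10.37 in the control arrays. For 213807_x_at they were 9.40, 9.39 and 9.28 in the arrays labelled GATA3, against 8.84, 8.85 and 8.84 in the control arrays. Neither probe set had overlapping groups. Control replicates 1 and 3 of 213807_x_at held the same value, as GCRMA can give for a probe set with a floor of its own. Its control readings therefore need not be signal. The fourth, 213816_s_at, read 8.37, 8.10 and 8.15 in the arrays labelled GATA3, against 7.84, 8.08 and 7.49 in the control arrays. It was higher on average by 0.40 (SE 0.17), with a wider spread in the control arrays, and did not pass (adjusted p 0.143). Without GFP control replicate 3 its change was 0.25. The 3 calls held in all 13 alternative fits.

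HGF, the ligand of MET and a product mainly of stromal cells, was under the detection level on all 5 of its probe sets. Its highest reading was 3.10, and 3 probe sets lay at the floor of 2.16 on every array. Probe set 210998_s_at read 2.39 on 5 arrays and 2.84 on GATA3 replicate 3. No fold is given, since both groups were below detection, and a level too low for these probe sets cannot be told apart from none.

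MST1R, the receptor for MST1 and a receptor mainly of epithelial cells, showed the widest difference among these genes. Its probe set (205455_at) read 8.22, 7.99 and 8.26 in the arrays labelled GATA3, against 6.40, 6.02 and 6.30 in the GFP control arrays. Every array labelled GATA3 exceeded every control array by more than the spread within either group. The log2 change was 1.92 (SE 0.13, 95% interval 1.59 to 2.25), 3.78-fold, with an adjusted p of 0.000465. It ranged from 1.79 to 2.00 over the 13 alternative fits and passed in all of them. With 1 probe set, the gene has no second reading on this array.

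The promoters of the genes with a changed probe set are shown for what they share and where they differ, MST1R and MET as higher and AXL, at the upstream of its 2 annotated starts, as lower by 202685_s_at. They are RefSeq sequences of GRCh38.p14, from 250 bases before to 50 bases after the annotated start, read 5′ to 3′ on the gene's strand. Capitals mark the E-box word CACCTG on either strand (printed as CAGGTG where it lies on the other), a word bound by ZEB-type repressors. The MST1R window is chr3:49903824-49904123 (minus strand), the MET window chr7:116671946-116672245 (plus strand) and the AXL window chr19:41218973-41219272 (plus strand).
MST1R: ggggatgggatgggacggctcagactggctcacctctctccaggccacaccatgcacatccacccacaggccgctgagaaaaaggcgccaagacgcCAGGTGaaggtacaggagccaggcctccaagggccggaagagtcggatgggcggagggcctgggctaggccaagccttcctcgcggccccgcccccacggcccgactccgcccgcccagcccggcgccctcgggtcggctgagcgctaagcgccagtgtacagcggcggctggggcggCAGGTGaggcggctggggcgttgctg
MET: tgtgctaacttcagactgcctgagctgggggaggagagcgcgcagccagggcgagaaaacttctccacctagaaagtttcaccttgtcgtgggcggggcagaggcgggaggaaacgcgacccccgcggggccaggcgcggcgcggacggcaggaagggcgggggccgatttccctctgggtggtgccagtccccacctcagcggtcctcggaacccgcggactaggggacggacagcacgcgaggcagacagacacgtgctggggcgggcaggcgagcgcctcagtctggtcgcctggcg
AXL: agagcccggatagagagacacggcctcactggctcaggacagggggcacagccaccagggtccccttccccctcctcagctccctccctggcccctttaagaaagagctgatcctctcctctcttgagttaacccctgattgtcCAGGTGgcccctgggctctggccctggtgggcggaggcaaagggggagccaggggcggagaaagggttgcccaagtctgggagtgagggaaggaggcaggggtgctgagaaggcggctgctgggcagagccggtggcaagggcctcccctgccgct
The word occurred 2 times in the MST1R window, 1 time in the AXL window and not in the MET window. At the other annotated start of AXL, not shown, it did not occur. Of 35116 promoter windows in the table, 20.6% held it at least once and 3.49% at least 2 times. The GATA words AGATAA or TGATAA with a final A, and AGATAG or TGATAG with a final G (25.0% of windows, either strand), and the AP-1 word TGANTCA (7.71%) were in none of these 3 windows. The matches describe letters only and do not show binding. ZEB1 averaged 9.14 ± 0.05 in the arrays labelled GATA3 and 11.06 ± 0.05 in the control arrays (SD, n = 3 each, adjusted p 1.64e-05). Whether ZEB1 acts on any of these genes was not tested.

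KIT, the stem cell factor receptor, lay at the floor of 2.16 on all 6 arrays by its only probe set, 205051_s_at. The mast cell markers TPSAB1, CPA3 and FCER1A were likewise under the detection level on every array. DDR2, the collagen receptor of mesenchymal cells, was under the detection level by 3 of its 4 probe sets, at 2.16 to 2.25. The other, 227561_at, read 4.29, 4.58 and 4.61 in the arrays labelled GATA3, against 4.57, 4.58 and 4.58 in the GFP control arrays. Control replicates 2 and 3 held the same value, as GCRMA can give for a probe set with a floor of its own, so these readings need not be signal. The log2 change was -0.08 (95% interval -0.33 to 0.17, adjusted p 0.576). The collagen receptor DDR1 had no probe set of its own. The probe sets annotated to DDR1 and MIR4640 together are given under the flagged results.

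**Figure D3:**
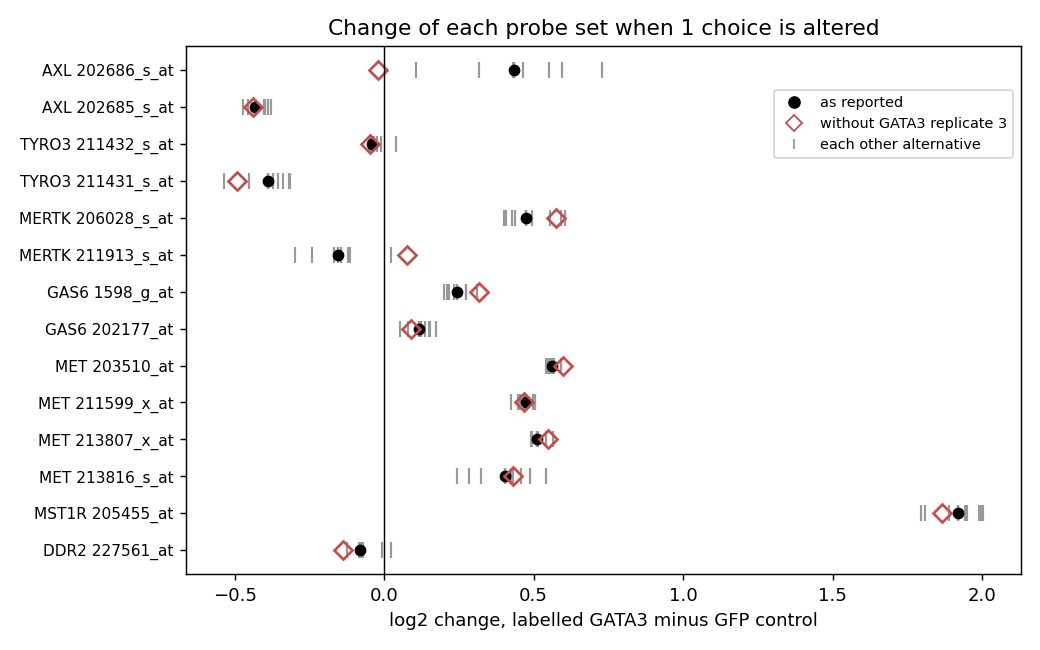
Log2 change (horizontal axis, arrays labelled GATA3 minus GFP control arrays) of each tested probe set as reported (black), without GATA3 replicate 3 (open diamonds) and under each other alternative (grey ticks). MET and MST1R move little, and AXL 202686_s_at lies at 0.43 as reported and at -0.021 without GATA3 replicate 3.

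The other genes of these pathways were read from 8 lists. Over the 8 lists, 62 of 109 genes were tested, of which 18 rose and 8 fell (41.9%, against 29.3% of all genes tested). The lists were chosen with earlier results of these data known, so the higher share cannot be read as a trait of these pathways. No list was tested as a whole. Of the 6 genes of HGF activation, 3 were tested, the protease ST14 and the inhibitors SPINT1 and SPINT2, and all 3 rose. SPINT1 met the filter only through the arrays labelled GATA3, so its rise was a condition of its being tested. ST14, the membrane protease matriptase, read 7.50, 7.66 and 7.60 in the arrays labelled GATA3, against 5.90, 5.76 and 6.38 in the GFP control arrays (2.97-fold higher, adjusted p 0.00252). The groups were apart. The other ST14 probe set was at least 5.77-fold higher, but it too met the filter only through the arrays labelled GATA3. SPINT1, the matriptase inhibitor HAI-1, read 8.47, 8.51 and 8.12 in the arrays labelled GATA3, against 3.38, 3.38 and 3.19 in the control arrays. All control arrays were under the detection level, so SPINT1 was at least 20.6-fold higher (adjusted p 1.6e-05). Such a bound sets the mean of the detected group against the detection level. SPINT2, the related inhibitor HAI-2, was 1.22-fold higher (adjusted p 0.0131). The activating proteases HGFAC, HPN and KLKB1 were under the detection level on every array.

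The ligand genes PROS1 and KITLG were also higher. PROS1, which encodes protein S, a ligand of TYRO3 and MERTK, read 8.26, 8.06 and 7.83 in the arrays labelled GATA3, against 6.74, 6.75 and 7.25 in the GFP control arrays. Its groups did not overlap, and it was 2.20-fold higher (adjusted p 0.00918). KITLG, stem cell factor, read 9.87, 9.83 and 9.84 in the arrays labelled GATA3, against 9.43, 9.54 and 9.40 in the control arrays (1.31-fold higher, adjusted p 0.00610), although its receptor KIT was at the floor. Its 2 other probe sets gave changes of 0.42 and 0.52 that did not pass (adjusted p 0.114 and 0.192). MST1 was under the detection level. Of 8 collagen genes, 4 were tested. COL4A2 (1.603-fold, adjusted p 0.00763) and COL4A1 (1.44-fold, adjusted p 0.00584), chains of basement membrane collagen, rose by 1 probe set each and did not pass by their other one (0.08 for COL4A2 and 0.24 for COL4A1). COL1A1 and COL5A1 did not pass.

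Partners and signalling genes went both ways. Of 6 MET partners tested, 2 rose and 4 did not pass. Those that rose were ITGA6 (0.41, adjusted p 0.0183) and ITGB4 (0.59, adjusted p 0.0231), which form the laminin-binding integrin of hemidesmosomes, and a further probe set of each passed as well (0.64, adjusted p 0.0039, and 0.41, adjusted p 0.0336). The call of ITGA6 was lost without GFP control replicate 1 or 2 or GATA3 replicate 1 or 2 (adjusted p 0.0513, 0.0708, 0.0606 and 0.0671). That of ITGB4 was lost without GFP control replicate 1, 2 or 3 or GATA3 replicate 2 (adjusted p 0.0680, 0.0539, 0.0761 and 0.0629). Without the filter on low values neither passed (adjusted p 0.0794 for ITGA6 and 0.0899 for ITGB4). CD44, PLXNB2, PLXNB3 and NRP1 did not pass. Of 16 adaptors and signalling enzymes tested, 3 rose, 2 fell and 11 did not pass, with a median of -0.07. NCK2, an adaptor that links receptors to actin, had a log2 change of -0.42 (adjusted p 0.00696). GAB1, the main docking protein of MET, fell (-0.46, adjusted p 0.0290), and PLCG1, phospholipase C gamma, rose (0.41, adjusted p 0.0202). The other probe sets of GAB1 and PLCG1 did not pass. That of GAB1 was lost without GFP control replicate 1 or 3 or GATA3 replicate 1 or 2 (adjusted p 0.0877, 0.0862, 0.0738 and 0.0748). That of PLCG1 was lost without GFP control replicate 1 or 2 or GATA3 replicate 1 (adjusted p 0.0604, 0.0641 and 0.0588). Neither passed without the filter on low values (adjusted p 0.0885 for GAB1 and 0.0676 for PLCG1), nor did GAB1 after quantile normalization (0.0800). Leaving out GFP control replicate 1 left 2 genes of the list called, and leaving out GATA3 replicate 2 left 3.

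Of 9 negative regulators tested, 3 rose, 2 fell and 4 did not pass. SOCS3, a feedback inhibitor of cytokine receptors, read 7.59, 7.60 and 7.75 in the arrays labelled GATA3, against 9.10, 9.15 and 9.28 in the GFP control arrays. It was 2.88-fold lower (adjusted p 0.000185), while its 2 other probe sets gave -0.31 and -0.25 and did not pass (adjusted p 0.110 and 0.135). LRIG1, a membrane protein that promotes the breakdown of ERBB receptors and MET, read 7.26, 7.13 and 6.80 in the arrays labelled GATA3, against 8.03, 7.98 and 8.17 in the control arrays. Its groups were apart, and it was 1.99-fold lower (adjusted p 0.0055). PTPN6, the phosphatase SHP-1 known from blood cells, rose by 0.78 on the log2 scale (adjusted p 0.0268). That call was lost without GFP control replicate 1, 2 or 3 or GATA3 replicate 2 (adjusted p 0.0852, 0.0779, 0.0970 and 0.0634), and in each of these 4 fits 3 genes of the list passed. It was also lost without the filter on low values (adjusted p 0.106). None of the 6 tested genes of receptor cleavage passed in limma by the probe set that stands for it, though 2 had an unadjusted p under 0.05, and 1 passed without GATA3 replicate 3. ADAM9, a membrane protease, had a change of 0.21 (adjusted p 0.0787), and its other probe set, 1555326_a_at, rose by 0.63 (adjusted p 0.00872).

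**Figure D4:**
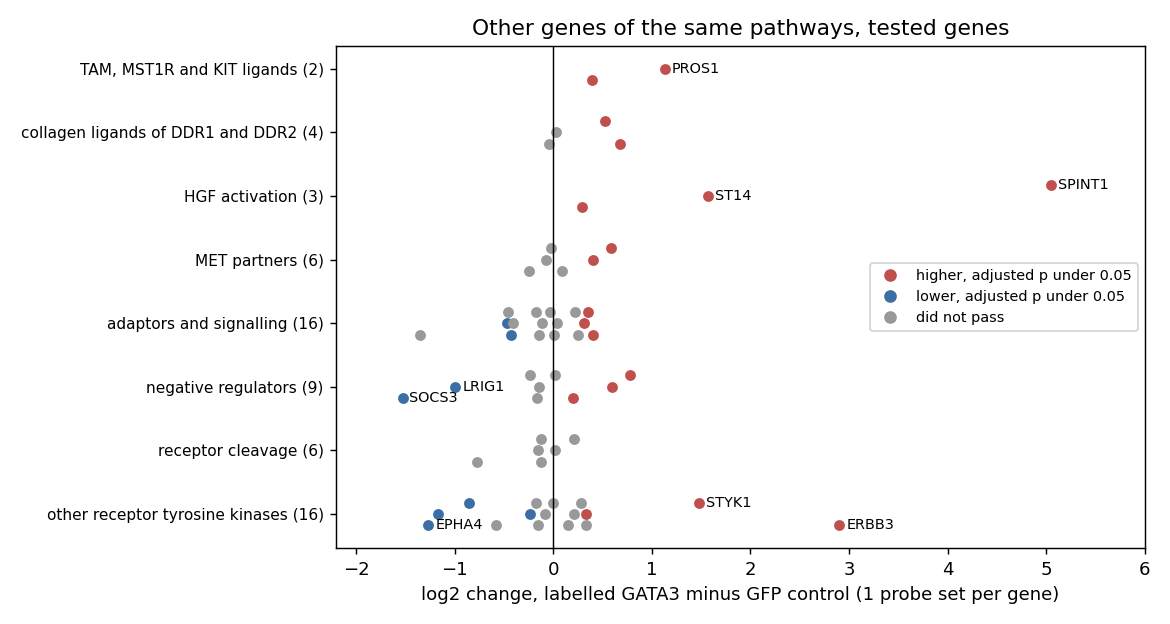
Log2 change (horizontal axis, arrays labelled GATA3 minus GFP control arrays) of the tested genes of 8 pathway lists, with 1 probe set per gene and the number of genes in parentheses. Red is higher and blue lower at an adjusted p under 0.05, and grey did not pass. SPINT1, ERBB3, ST14, STYK1 and PROS1 lie farthest to the right and SOCS3 and EPHA4 farthest to the left among those that passed.

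Among 45 other receptor tyrosine kinases with a probe set of their own, 16 were tested, of which 3 rose, 4 fell and 9 did not pass, with a median of -0.04. Set beside them, 2 of 7 tested genes of the TAM, MET and DDR group rose and none fell by their brightest probe sets, a difference that was not tested. ERBB3, a receptor for neuregulins, read 7.67, 7.10 and 6.95 in the arrays labelled GATA3, against 4.36, 4.32 and 4.32 in the GFP control arrays (adjusted p 0.000401). Control replicates 2 and 3 held the same value, which need not be signal, so the gene was at least 7.48-fold higher by its own control mean. Probe set 202454_s_at was at least 4.75-fold higher. It met the filter only through the arrays labelled GATA3, so its rise was a condition of its being tested. Probe set 1563253_s_at, at 4.70 on every array, did not pass (adjusted p 0.994). STYK1 rose 2.79-fold (adjusted p 0.000615), and EPHA4, an ephrin receptor, was 2.40-fold lower (adjusted p 0.00166) by 227449_at and did not pass by 206114_at (-0.16, adjusted p 0.360). Without GATA3 replicate 1, 4 genes of this list passed.

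The genes whose readings over the 6 arrays were most like those of MST1R, among 818 genes with a log2 change of at least 1 in size, were SLC47A1, DIPK1B and SOX13, with Pearson r of 0.999, 0.998 and 0.998. For AXL by 202685_s_at they were PITPNC1, FAT3 and TIAM1, with r of 0.993, 0.989 and 0.988. These correlations across 6 arrays share the difference between the groups, and they are given as a description. SLC47A1 and DIPK1B were under the detection level on every GFP control array. They met the filter only through the arrays labelled GATA3.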

How the data were processed

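Gene expression was measured with 6 single-colour Affymetrix arrays of 54675 probe sets, 3 labelled GATA3 and 3 GFP control. The authors deposited GCRMA values, per the submitters' processing notes. The scale is not stated, and the deposited values were read as log2 from their range and floor. The method removes background by a model of probe sequence, so undetected probe sets collapse to a floor and low values carry little information. Values were used as deposited. The 62 control probe sets were left out, and a probe set was tested if over 4 on at least 3 of 6 arrays, which left 23785. For counts of genes, the tested probe set highest on average over all 6 arrays stood for the gene.

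Groups were compared with limma 3.58.1 in R 4.3.3 (lmFit, eBayes with an intensity trend, Benjamini-Hochberg adjustment over all tested probe sets, threshold 0.05). The fit was tested on simulated data in which 80, 80 and 40 probe sets were changed by 0.5, 1 and 2 on the log2 scale. It recovered 20%, 63.7% and 82.5% of them, and 2.91% of its calls were false. Far fewer probe sets were changed there than were called in the data. A change of 0.5 that did not pass can therefore have been missed. The number of arrays limits the precision.

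All 10 members and GATA3 are named, with, per list, up to 3 tested genes of the largest change past the threshold, or the gene with the highest mean where none passed, and the 3 genes most like the changed members. CSF1R, the genes of a count that did not pass, and those under the detection level were named with their values in view. The members and lists were chosen with earlier results of these data known. Symbols came from the platform annotation, and all 10 members matched the RefSeq promoter table. Same-numbered arrays of the groups did not deviate together (correlations -0.13, 0.16 and -0.11), so the numbers were not taken as pairs. Alternatives were other filters, scalings, variance models, array weights, the replicate block and leaving out each array.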

Additional observations from a re-analysis of the deposited data

Results flagged for a closer look

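The 4 probe sets annotated to both DDR1 and MIR4640 were left out of the counts of these genes above, since a probe set with 2 symbols names neither gene. They were among the 23785 probe sets tested, and each was higher in the arrays labelled GATA3 than in the GFP control arrays. Probe set 207169_x_at read 9.60, 9.79 and 9.77 in the arrays labelled GATA3, against 8.69, 8.71 and 8.73 in the control arrays, a log2 change of 1.01 (adjusted p 0.000447). Probe sets 1007_s_at, 208779_x_at and 210749_x_at changed by 0.90, 0.97 and 0.88 (adjusted p 0.00138, 0.00224 and 0.000670). The groups did not overlap in any of the 4, and all 4 calls held in every alternative fit run for them.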

How the results depend on the processing

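The calls of MET by 3 probe sets, of MST1R and of AXL by 202685_s_at held in all 13 alternative fits. The 6027 probe sets called became 3613 without a filter on low values and 11837 with array weights, and ranged from 3688 to 7333 when any 1 array was left out. The probe sets of these genes called numbered 8 with array weights and 5 to 8 when 1 array was left out. The genes called numbered 4 after quantile normalization, after cyclic loess and with array weights, and 2 to 4 when 1 array was left out. The 26 pathway genes called became 16 without a filter (0 MET partners, 2 adaptors, 3 negative regulators and 4 other receptor tyrosine kinases) and 17 to 30 when 1 array was left out. Called genes numbered 0 to 3 for MET partners, 2 to 7 for adaptors, 3 to 5 for negative regulators, 0 to 1 for receptor cleavage and 4 to 7 for other receptor tyrosine kinases when 1 array was left out. GAS6 1598_g_at and MERTK 206028_s_at also passed after quantile normalization (adjusted p 0.0158 and 0.0148), after cyclic loess (0.0221 and 0.0407) and with array weights (0.00129 and 0.00290), and TYRO3 211431_s_at with array weights (0.00166). With array weights, GATA3 replicate 2 was weighted 11.8, against 0.698 and 0.125 for GATA3 replicates 1 and 3. The mean of the arrays labelled GATA3 in that fit therefore rested mostly on replicate 2. Signs turned only for log2 changes that had not passed. They were AXL 202686_s_at (-0.021) and MERTK 211913_s_at (0.078) without GATA3 replicate 3, MERTK 211913_s_at with array weights (0.025), DDR2 227561_at without GATA3 replicate 1 (0.023) and TYRO3 211432_s_at after quantile normalization (0.041). When 1 array was left out, AXL 202686_s_at lay between -0.021 and 0.73, MERTK 211913_s_at between -0.30 and 0.078, and DDR2 227561_at between -0.14 and 0.023. Of the others that had not passed, MET 213816_s_at lay between 0.25 and 0.54 and GAS6 202177_at between 0.053 and 0.17. The cause of these changes was not tested. The scalings moved the median change of all probe sets from -0.05 to -0.01 at most. With the replicate block, 4128 probe sets passed, with 5 of these genes' probe sets and 18 pathway genes. Of the genes named, PROS1 (adjusted p 0.0507), ITGA6 (0.0728), ITGB4 (0.0841), GAB1 (0.0728) and PTPN6 (0.0720) did not pass with the block, which left 1 ligand, 0 MET partners and 3 negative regulators called.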
